A study of Homo sapiens with 105 samples.

Results

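The response of Caco-2 cells to 24 h with outer membrane vesicles (OMVs) of Proteus mirabilis was described across all genes of a bulk RNA-seq series. Its libraries are those titled as P. mirabilis OMVs for 24 h and as PBS for 24 h, 4 of each. These 8 belong to a series of 66 libraries and a further 39 on sequencing lanes that stood apart, as described below. The OMV cells received 6000000000 vesicles of P. mirabilis DSM 4479 in the medium for 24 h, and the PBS cells received the buffer alone for 24 h. Caco-2 is a human colon adenocarcinoma line whose cells resemble enterocytes of the small intestine when they grow confluent. All cells of the series were Caco-2 cells in DMEM medium, so a single cell line in culture, without immune cells or mucus, stands for the intestinal epithelium. The study set vesicles of 3 bacteria, their RNA and lipopolysaccharide (LPS) beside controls after 10, 24 or 48 h, in 28 groups of 3 or 4 libraries with replicate numbers 2 to 5. The groups used beside OMV and PBS at 24 h were OMV and PBS at 10 h, P. mirabilis LPS added to the medium for 24 h, 150000000000 membrane vesicles (MVs) of Lacticaseibacillus casei DSM 20011 for 24 h and 7500000000 MVs of Enterococcus faecalis DSM 20478 for 24 h, all in the same cells. Further groups of 24 h were transfected with vesicle RNA (2 ng from P. mirabilis, 100 ng from L. casei or 5 ng from E. faecalis), with 2, 5 or 100 ng of a control siRNA, or with P. mirabilis LPS.

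OMVs are spheres that Gram-negative bacteria shed from their outer membrane, and they carry LPS, membrane proteins, peptidoglycan fragments and RNA. Epithelial cells sense such molecules through Toll-like receptors, NOD proteins and other receptors, which lead to the IkappaB kinases and to the release of NF-kappaB, a family of transcription factors that bind a common DNA motif. NF-kappaB is known to switch on chemokines, antimicrobial proteins and the survival factor BIRC3 in intestinal epithelium. It also switches on its own brakes, among them NFKBIA and TNFAIP3.

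Values are CPM, the counts of a gene per 1000000 counts of the scaled library size. The 8 libraries held 3763656, 4538326, 3887786 and 4644244 counts (OMV, replicates 2 to 5) and 6232034, 4982349, 4017617 and 6072368 counts (PBS, replicates 2 to 5). Over the series the totals ran from 632659 to 8558755, with a median of 4982349. Libraries on lanes 2 to 4 of flow cell 1 stood apart: 12 of these 39 libraries were nearest in expression to their own labelled time, against 66 of the 66 libraries elsewhere. Replicates 4 and 5 of both groups were on those lanes, and of these the OMV replicate 4 library and both PBS libraries were nearest to 10 h. The main tests were therefore made on the 66 other libraries, with OMV and PBS replicates 2 and 3, and the 4 libraries set aside are given beside them. OMV replicate 2 was on flow cell 2 and the other 3 libraries of the comparison were on flow cell 1. The 9 epithelial markers, among them KRT8, were all detected and summed to 7022 to 7906 CPM in OMV and 7212 to 7909 CPM in PBS libraries. The leukocyte markers PTPRC, MS4A1 and FCGR3A had no count in the 4 libraries. The leukocyte list as a whole summed to 29.0 to 190 CPM in OMV and 22.7 to 192 CPM in PBS libraries, with LYZ as the highest marker. The 5 endothelial markers summed to 2.98 to 5.63 CPM in OMV and 6.00 to 8.31 CPM in PBS libraries, and the 6 fibroblast markers to 60.4 to 86.0 CPM in OMV and 68.1 to 93.3 CPM in PBS libraries, and their part in the results was not tested. The labels do not say whether the replicates were separate cultures, and a p-value here refers to the spread between libraries, which may be technical. In bulk RNA, fewer cells expressing a gene and less RNA per cell cannot be told apart.

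After 24 h incubation with P. mirabilis OMVs, 18 genes were higher (0.0959% of the 18775 genes tested) and 3 were lower (0.016%) than in PBS cells, 21 genes in all (0.112%). The higher genes comprised 5 regulators of NF-kappaB (BIRC3, RELB, TNFAIP3, IKBKE and NFKBIA), the chemokines CCL20 and CXCL1, the cytokine IL32 and the defence proteins C3 and PI3. Also higher were the epithelial transcription factor EHF, the adhesion and wound genes SDC4, PERP and WNT10B, and SVIL, which encodes an actin-binding protein. The other 3 were GARS1, OR2I1P and the pseudogene ENSG00000227766. The lower genes were DPP4, a peptidase of the brush border, ZBTB26 and TRAF3IP3. The test was edgeR's quasi-likelihood test with the replicate number as a block and Benjamini-Hochberg adjustment, at an adjusted p of 0.05, and at an unadjusted p of 0.05 it passed 886 genes (4.72%). Without the block, 6 genes were higher (0.032%) and 0 lower, all 6 of them among the 21 (OR2I1P, TNFAIP3, PI3, C3, IKBKE and NFKBIA), with 409 genes at an unadjusted p under 0.05 in edgeR's test. With the block fitted within each time, 46 genes were higher (0.245%) and 15 lower (0.0799%), and these 61 genes included all 21. The number of genes fell to 12, 15, 8 and 16 when OMV replicate 2, OMV replicate 3, PBS replicate 2 and PBS replicate 3 was left out. CCL20, CXCL1, IL32, SVIL, ZBTB26 and TRAF3IP3 did not pass the test when any 1 of these libraries was left out, and C3, IKBKE, OR2I1P, PI3, TNFAIP3 and SDC4 passed it whichever was left out.

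**Figure D1:**
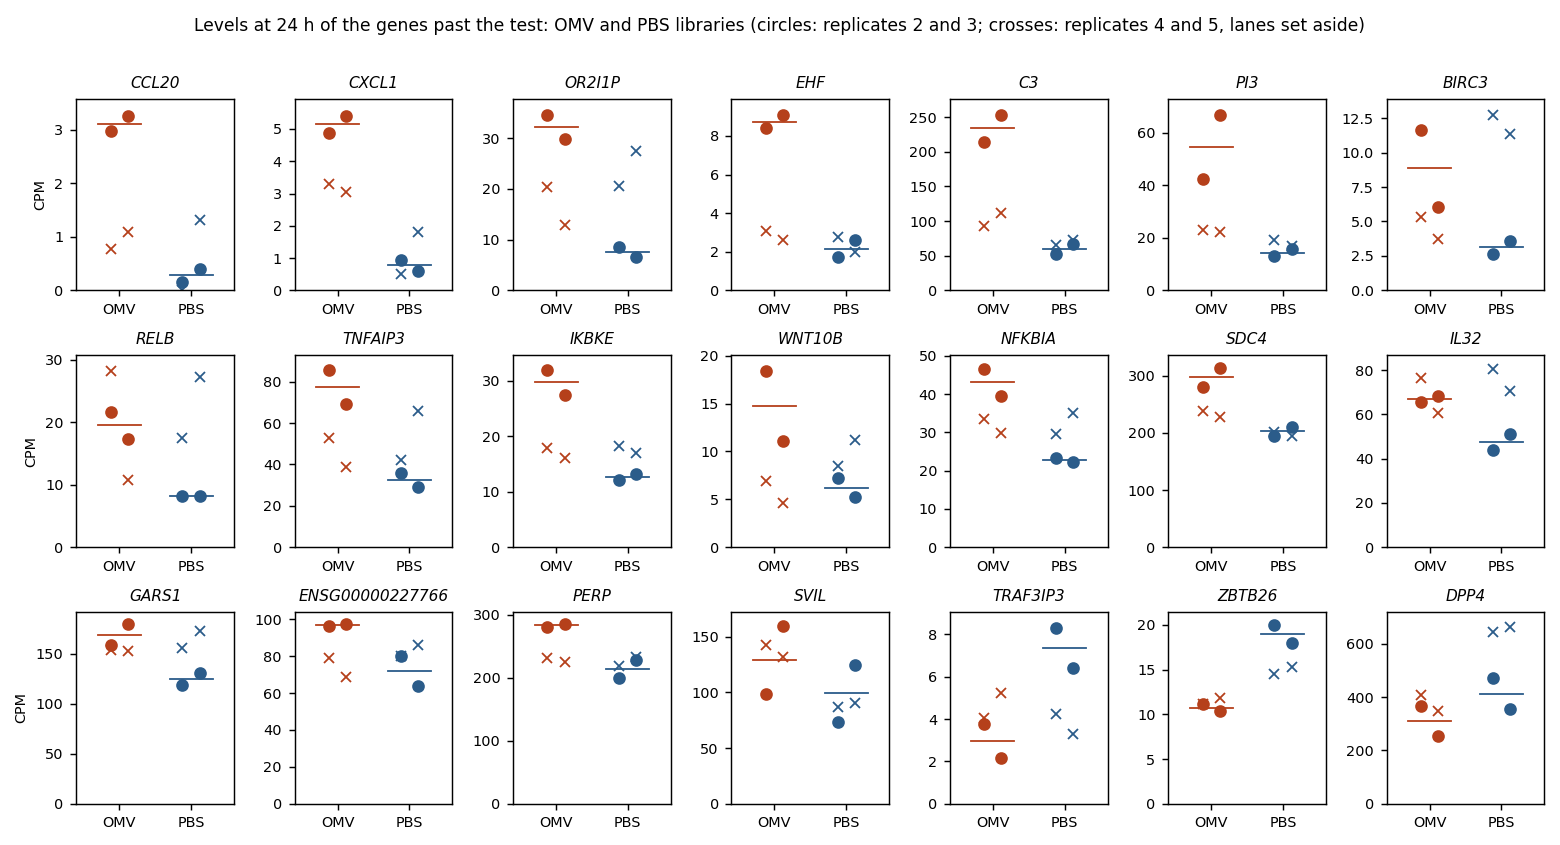
CPM of the 21 genes past the test in the OMV (left in each panel) and PBS (right) libraries at 24 h. Circles are replicates 2 and 3, crosses are replicates 4 and 5 on the lanes set aside, and bars are means of the circles. C3 lay at 215 and 254 CPM in the OMV circles and at 52.2 and 67.4 CPM in the PBS circles.

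**Figure D2:**
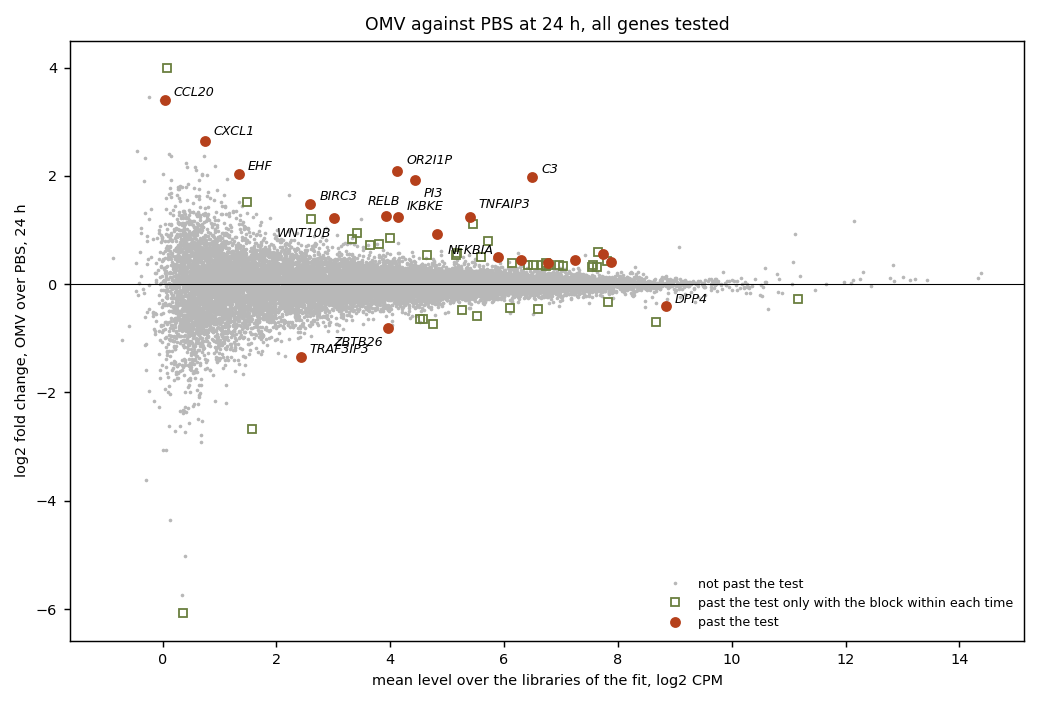
Log2 fold change of OMV over PBS at 24 h (y axis) against mean level in log2 CPM over the libraries of the fit (x axis), 1 point per gene for 18775 genes. Filled circles are the 21 genes past the test and squares are the 40 genes past it only with the block within each time. CCL20 and CXCL1 have the largest fold changes of the circles, and DPP4, ZBTB26 and TRAF3IP3 are the circles below 0.

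TNFAIP3 and NFKBIA, which encode inhibitors of NF-kappaB signalling, rose. TNFAIP3, which encodes the ubiquitin-editing enzyme A20, had 85.5 and 69.3 CPM in the OMV libraries, against 35.8 and 29.2 CPM in the PBS libraries (replicates 2 and 3). The means were 77.4 ± 11.5 CPM in OMV and 32.5 ± 4.66 CPM in PBS cells (SD, n = 2 each), a log2 fold change of 1.25 ± 0.12 (SE; edgeR, adjusted p = 4.41e-13). The gene lies at chr6:137867214-137883314 on the plus strand (GRCh38, GENCODE release 44), and its exons overlap WAKMAR2 on the other strand. NFKBIA, which encodes IkappaBalpha, the protein that holds NF-kappaB in the cytoplasm, had 46.6 and 39.6 CPM in the OMV libraries, against 23.2 and 22.2 CPM in the PBS libraries. It rose by 0.92 ± 0.16 on the log2 scale (edgeR, adjusted p = 0.000493). The OMV and PBS libraries did not overlap for either gene (10.3% of all genes had both OMV above both PBS libraries). Without OMV replicate 2, NFKBIA no longer passed the test, with log2 fold changes of 0.77 to 1.07 over the 4 libraries left out in turn.

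RELB, IKBKE and BIRC3, which act in the same or related pathways, rose too. RELB, the NF-kappaB subunit of the alternative pathway (chr19:45001461-45038192, plus strand), had 21.7 and 17.3 CPM in the OMV libraries, against 8.16 and 8.19 CPM in the PBS libraries. The log2 fold change of RELB was 1.26 ± 0.25 (edgeR, adjusted p = 0.00452). IKBKE, a kinase related to the IkappaB kinases that acts on interferon regulatory factors, had 31.9 and 27.5 CPM in the OMV libraries, against 12.1 and 13.2 CPM in the PBS libraries. IKBKE had a log2 fold change of 1.24 ± 0.18 (edgeR, adjusted p = 3.33e-06), and its exons overlap IKBKE-AS1. BIRC3, the inhibitor of apoptosis cIAP2, which attaches ubiquitin in TNF receptor complexes, had 11.6 and 6.06 CPM in the OMV libraries, against 2.67 and 3.60 CPM in the PBS libraries. The log2 fold change of BIRC3 was 1.49 ± 0.33 (edgeR, adjusted p = 0.0217), with the OMV libraries farther apart from each other than the PBS libraries.

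Of the 31 tested genes of a list of NF-kappaB subunits and regulators, these 5 rose and none fell (background 0.0959% and 0.016%), and their median log2 fold change was 0.14, against 0.0008 over all genes. NFKB2 and NFKBIE had log2 fold changes of 0.62 and 0.57, and RELA and NFKB1 of 0.10 and 0.05, and these 4 did not pass the test. The inhibitors NFKBIB (0.14), CYLD (0.38) and OTULIN (0.03) and the activating kinases IKBKB (-0.12), MAP3K7 (-0.14) and MAP3K14 (-0.45) did not pass it either. With the block within each time, 8 of the 31 passed (background 0.325%), 3 more than before: ZC3H12A, NFKBIZ and TNIP1. NFKBIZ, an atypical IkappaB protein that acts in the nucleus, had 112 and 79.5 CPM in the OMV libraries, against 53.8 and 55.8 CPM in the PBS libraries. NFKBIZ had a log2 fold change of 0.80 in both fits, with an adjusted p of 0.562 with the common block and of 5.48e-10 with the block within each time (edgeR). ZC3H12A, the RNase regnase-1, which degrades cytokine mRNAs, had 19.2 and 16.9 CPM in the OMV libraries, against 7.84 and 11.2 CPM in the PBS libraries. For ZC3H12A it was 0.95 (edgeR, adjusted p = 0.067 with the common block, 0.0141 with the block within each time).

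Promoter sequences of the genes that rose are shown because NF-kappaB has a well-known binding motif and several of the genes regulate that factor. RefSeq promoters (GRCh38.p14, 250 bases before to 50 after each start) were found for 12 of the 18 higher genes and for all 3 lower genes. The NF-kappaB consensus, searched on both strands, matched 7 of the 12 promoters of higher genes (58.3%) and 0 of the 3 of lower genes, against 5.72% of all 27305 promoters and 6.52% of the 11872 promoters of tested genes. A match is a description of the letters and not a binding site. Stretches of 80 bases around the matches are given 5′ to 3′ on the strand of the gene, with the matched bases in capitals. Where the capitals run to 11 bases, 2 matches on opposite strands overlap.
TNFAIP3 (chr6:137867163-137867242, plus strand): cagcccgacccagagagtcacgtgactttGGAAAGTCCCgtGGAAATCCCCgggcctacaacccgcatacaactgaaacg
NFKBIA (chr14:35404786-35404865, minus strand): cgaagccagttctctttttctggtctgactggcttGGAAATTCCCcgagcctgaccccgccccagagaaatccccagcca
BIRC3 (chr11:102317282-102317361, plus strand): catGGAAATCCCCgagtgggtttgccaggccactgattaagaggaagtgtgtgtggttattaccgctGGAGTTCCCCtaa
CCL20 (chr2:227813728-227813807, plus strand): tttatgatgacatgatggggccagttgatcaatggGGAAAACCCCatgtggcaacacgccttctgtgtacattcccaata
CXCL1 (chr4:73869279-73869358, plus strand): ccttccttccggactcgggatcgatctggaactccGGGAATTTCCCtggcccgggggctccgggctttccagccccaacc
IL32 (chr16:3065269-3065348, plus strand): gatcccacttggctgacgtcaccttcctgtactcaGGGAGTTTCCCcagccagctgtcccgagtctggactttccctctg
SDC4 (chr20:45348477-45348556, minus strand): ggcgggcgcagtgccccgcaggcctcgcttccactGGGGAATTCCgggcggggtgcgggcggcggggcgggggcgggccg
In TNFAIP3 and BIRC3 a pair of separate matches lie in the stretch shown, and in the other 5 promoters the matches lie at 1 place. Among the genes that passed only with the block within each time, the consensus matched 3 of 18 promoters of higher genes (ANKRD33B, NFKBIZ and CXCL10, 16.7%) and 1 of 10 of lower genes (MST1).

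The chemokines CCL20 and CXCL1 rose, on few counts. CCL20, which draws CCR6-bearing dendritic cells and lymphocytes, had 11 and 15 counts in the OMV libraries, against 1 and 2 counts in the PBS libraries. The pooled ratio of OMV to PBS was 11.9, with a counting interval of 3.64 to 61.2 (95%, exact), and the fitted log2 fold change was 3.41 ± 0.76 (edgeR, adjusted p = 0.0241). CXCL1, which draws neutrophils through CXCR2, had 4.87 and 5.41 CPM in the OMV libraries, against 0.941 and 0.600 CPM in the PBS libraries. CXCL1 had a log2 fold change of 2.65 ± 0.52 (edgeR, adjusted p = 0.00399). All 4 OMV libraries lay above all 4 PBS libraries for CXCL1 when the lanes set aside were counted in (0.959% of all genes). It had 3.31 and 3.05 CPM in OMV replicates 4 and 5 against 0.500 and 1.81 CPM in PBS. CCL20 had 3 and 5 counts in OMV replicates 4 and 5 against 0 and 8 in PBS, which overlap. Counting intervals cover counting error only.

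CXCL10, a chemokine for CXCR3-bearing T cells, had 8 and 6 counts in the OMV libraries, against 1 and 0 counts in the PBS libraries. The ratio was 19.2 with a counting interval of 2.92 to 810 (95%, exact), and the adjusted p was 0.165 with the common block and 0.0329 with the block within each time (edgeR). CXCL3, another CXCR2 ligand, had 3.25 and 4.33 CPM in the OMV libraries, against 1.26 and 2.00 CPM in the PBS libraries, and did not pass the test. CXCL5 had 2 counts over the OMV libraries and 0 over the PBS libraries at 24 h. CXCL8, the neutrophil chemokine also called IL-8, had 0 and 1 counts in the OMV libraries and 0 and 1 counts in the PBS libraries, too few to be tested, and CXCL11 had 1 and 0 counts in the OMV libraries and none in the PBS libraries. Of the 20 chemokines listed 8 were tested, of which 2 rose and none fell (background 0.0959% and 0.016%). The other 12 had too few counts, and a gene can pass the filter on low counts through OMV libraries alone, so a median over the 8 says nothing about the list. CXCL2, CXCL16 and CCL28, with 0.01, 0.12 and 0.12 on the log2 scale, did not pass the test.

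IL32, which encodes an intracellular cytokine of epithelial and immune cells, had 65.5 and 68.4 CPM in the OMV libraries, against 43.9 and 51.4 CPM in the PBS libraries. It rose by 0.50 ± 0.11 on the log2 scale (edgeR, adjusted p = 0.0323). It was the 1 gene of 16 tested cytokines and TNF family members that passed (background 0.0959% higher). The median of the 16 was -0.02. The list held 29 genes, and those with too few counts are left out, so this median says nothing about the list. LTB and CSF1 had log2 fold changes of 1.58 and 1.29 on 11 and 20 counts over the OMV libraries, against 5 and 10 over the PBS libraries, and neither passed the test (adjusted p = 1 for both). Their OMV and PBS libraries did not overlap for LTB (10.3% of all genes had both OMV above both PBS libraries) and overlapped for CSF1.

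Among secreted defence proteins, C3 and PI3 rose. C3, the central protein of the complement cascade (chr19:6677704-6730562, minus strand), had 215 and 254 CPM in the OMV libraries, against 52.2 and 67.4 CPM in the PBS libraries. The means were 234 ± 27.5 CPM in OMV and 59.8 ± 10.7 CPM in PBS cells (SD, n = 2 each), and the log2 fold change was 1.98 ± 0.20 (edgeR, adjusted p = 2.64e-08). PI3, elafin, an inhibitor of neutrophil elastase with antimicrobial activity (chr20:45174902-45176544, plus strand), had 42.5 and 66.9 CPM in the OMV libraries, against 13.2 and 15.6 CPM in the PBS libraries. PI3 rose by 1.92 ± 0.18 on the log2 scale (edgeR, adjusted p = 4.81e-12). In the lanes set aside C3 had 93.1 and 112 CPM in OMV and 65.3 and 72.4 CPM in PBS libraries, and PI3 had 23.1 and 22.2 CPM in OMV and 19.3 and 17.0 CPM in PBS libraries. Both genes thus lay higher in all 4 OMV than in all 4 PBS libraries (0.959% of all genes), by less in the lanes set aside.

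C3 was the 1 of 12 tested complement genes past the test (background 0.0959% higher). CFB, which joins C3 in the alternative pathway, had a log2 fold change of 0.33 ± 0.25, and the regulators CD55 and CD59 had 0.21 and 0.17, none past the test. PI3 was the 1 of 17 tested antimicrobial and mucosal defence genes past it (background 0.0959% higher). The median of the 17 was 0.39. The list held 30 genes, and a gene can pass the filter on low counts through OMV libraries alone, so this median says nothing about the list. PIGR, the receptor that carries IgA across the epithelium, had 18 counts over the OMV libraries and 2 over the PBS libraries, a ratio of 12.3 with a counting interval of 2.95 to 109 (95%, exact), at an adjusted p of 0.27 (edgeR). SLPI, a protease inhibitor related to elafin, had 1.62 and 6.93 CPM in the OMV libraries, against 1.10 and 3.00 CPM in the PBS libraries, which overlap.

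None of the 20 tested receptors and adaptors that sense microbes passed edgeR's test, in which 3 had an unadjusted p under 0.05. IRAK2, a kinase that relays Toll-like receptor signals, had 14.6 and 13.6 CPM in the OMV libraries, against 7.53 and 8.19 CPM in the PBS libraries. Its adjusted p was 0.119 with the common block, and it passed with the block within each time (log2 fold change 0.82). TLR7, the endosomal receptor for single-stranded RNA, had 6 and 26 counts in the OMV libraries, against 0 and 14 in the PBS libraries, which overlap (log2 fold change 1.44, edgeR, adjusted p = 0.928). The list held 36 genes, and those too low to be tested included TLR4, the receptor that LPS stimulates, and LY96. NOD2, CASP1, NLRP1 and TLR3 were too low to be tested as well. NOD2, a sensor of peptidoglycan, had 7 counts over the OMV libraries and 2 over the PBS libraries, and TLR3, the receptor for double-stranded RNA, had 6 over OMV and 3 over PBS. The inflammasome genes CASP1 and NLRP1 had 2 and 1 counts over the OMV libraries, and 0 and 1 over the PBS libraries. For these genes a difference was not detectable at this depth.

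A pair of the higher genes lie near each other on chromosome 6 and overlap exons of genes on the other strand. OR2I1P, named as an olfactory receptor gene (chr6:29550407-29557773, plus strand), had 34.6 and 29.9 CPM in the OMV libraries, against 8.47 and 6.60 CPM in the PBS libraries. Its log2 fold change was 2.09 ± 0.19 (edgeR, adjusted p = 4.41e-13). Its exons overlap UBD on the minus strand, which encodes the ubiquitin-like protein FAT10, and GABBR1. The counting options name no strand setting, so reads of OR2I1P and of UBD cannot be told apart where the genes overlap. The options also name no counting of reads that lie on both genes, and such reads may be in neither count. UBD itself had 1 and 1 counts in the OMV libraries and none in the PBS libraries, which may therefore understate its level. The pseudogene ENSG00000227766 (chr6:29942075-29943067, minus strand) had 96.1 and 97.2 CPM in the OMV libraries, against 80.0 and 64.0 CPM in the PBS libraries. Its log2 fold change was 0.44 ± 0.09 (edgeR, adjusted p = 0.0125). Its reads may be shared with near-identical or overlapping genes, so its value is uncertain. None of the 17 tested antigen presentation genes passed edgeR's test, with 4 at an unadjusted p under 0.05. None of the 19 tested interferon response genes passed it, with 0 at an unadjusted p under 0.05.

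EHF, an ETS transcription factor of epithelia (chr11:34621093-34663288, plus strand), had 8.39 and 9.10 CPM in the OMV libraries, against 1.73 and 2.60 CPM in the PBS libraries. The log2 fold change was 2.03 ± 0.38 (edgeR, adjusted p = 0.00116). It was the 1 of 23 tested epithelial transcription factors past the test (background 0.0959% higher). ELF3, its relative, had 55.2 and 96.6 CPM in the OMV libraries, against 41.6 and 69.8 CPM in the PBS libraries, which overlap (log2 fold change 0.45, adjusted p = 0.958). The hepatocyte nuclear factor HNF4A and the caudal factor CDX2, which hold the enterocyte programme, had log2 fold changes of -0.08 and 0.09.

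In the list of matrix proteases, adhesion and wound genes, 3 of 26 tested members rose and none fell (background 0.0959% and 0.016%), and with the block within each time 5 rose (background 0.245%). SDC4, a heparan sulfate proteoglycan of focal adhesions (chr20:45325288-45348424, minus strand), had 281 and 314 CPM in the OMV libraries, against 195 and 211 CPM in the PBS libraries (log2 fold change 0.56 ± 0.08, edgeR, adjusted p = 1.38e-05). PERP, a desmosome protein induced by p53, had 281 and 285 CPM in the OMV libraries, against 200.2 and 227 CPM in the PBS libraries (0.41 ± 0.08, edgeR, adjusted p = 0.00116). WNT10B, a secreted WNT ligand, had 18.4 and 11.0 CPM in the OMV libraries, against 7.22 and 5.20 CPM in the PBS libraries (1.23 ± 0.26, edgeR, adjusted p = 0.0125). The groups did not overlap for these 3 genes, where 10.3% of all genes had both OMV libraries above both PBS libraries. Of the 3 only SDC4 kept the same order in the lanes set aside, as 26.7% of all genes had there. It had 238 and 228 CPM in OMV and 201 and 195 CPM in PBS libraries of those lanes. MMP1, the interstitial collagenase, had 25.4 and 49.4 CPM in the OMV libraries, against 7.53 and 28.8 CPM in the PBS libraries, and passed the test only with the block within each time (log2 fold change 1.12 with the common block, adjusted p = 0.611).

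SVIL, which encodes the actin-binding protein supervillin, had 98.5 and 159.6 CPM in the OMV libraries, against 73.4 and 125 CPM in the PBS libraries. The groups overlapped, with replicate 3 higher than replicate 2 in both, and within a replicate number OMV was the higher (log2 fold change 0.39 ± 0.09, edgeR, adjusted p = 0.0422). Replicates 3 and 2 differed for 11670 genes across the fit (62.2%), and for 14 of the 21 genes. GARS1, the glycyl-tRNA synthetase, had 159 and 179.5 CPM in the OMV libraries, against 118 and 131 CPM in the PBS libraries (0.45 ± 0.09, edgeR, adjusted p = 0.00188). Genes of amino acid supply passed only with the block within each time. SLC7A11, the cystine transporter, had 18.4 and 20.8 CPM in OMV and 10.0 and 13.8 CPM in PBS libraries (log2 fold change 0.73), and PSAT1, of serine synthesis, had 23.5 and 38.3 CPM in OMV and 19.8 and 23.4 CPM in PBS libraries (0.54). They were 2 of 23 tested genes of amino acid and ER stress that were higher with that block (background 0.245%). None of the 23 passed edgeR's test with the common block, with 5 at an unadjusted p under 0.05. SHMT2 and MTHFD2, of mitochondrial folate metabolism, and the methionyl-tRNA synthetase MARS1 also passed with the block within each time only, with log2 fold changes of 0.36, 0.35 and 0.34.

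The lower genes were a brush border peptidase, a zinc finger protein and a signalling adaptor. DPP4, the dipeptidyl peptidase of the enterocyte brush border (chr2:161992245-162074394, minus strand), had 367 and 254 CPM in the OMV libraries, against 470.5 and 354 CPM in the PBS libraries. The groups overlapped across replicate numbers, and OMV was the lower within each number. Its log2 fold change was -0.41 ± 0.07 (edgeR, adjusted p = 0.000816), and it did not pass the test without OMV replicate 3 or without PBS replicate 3, with log2 fold changes of -0.46 to -0.36 over the 4 libraries left out in turn. In the lanes set aside DPP4 had 407 and 349 CPM in OMV and 643 and 664 CPM in PBS libraries. ZBTB26, a zinc finger protein, had 11.1 and 10.4 CPM in the OMV libraries, against 19.9 and 18.0 CPM in the PBS libraries (log2 fold change -0.81 ± 0.18, edgeR, adjusted p = 0.0305). It was lower in all 4 OMV than in all 4 PBS libraries (1.18% of all genes), with 11.2 and 11.8 CPM in OMV and 14.5 and 15.3 CPM in PBS libraries of the lanes set aside. TRAF3IP3, an adaptor that binds TRAF3, had 3.79 and 2.17 CPM in the OMV libraries, against 8.31 and 6.40 CPM in the PBS libraries (-1.34 ± 0.31, edgeR, adjusted p = 0.043), and its exons overlap C1orf74.

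Of 27 tested brush border and enterocyte genes, DPP4 was lower and none was higher (background 0.016% and 0.0959%). Of the 27, 6 had a log2 fold change above 0, against 9421 of the 18775 genes tested. The list's median was -0.27, and its median at 10 h was -0.28. With the block within each time 3 were lower (background 0.0799%): DPP4, the lactase gene LCT and the lipoprotein gene APOB. LCT had 31.9 and 8.23 CPM in the OMV libraries, against 51.8 and 14.6 CPM in the PBS libraries (log2 fold change -0.74, adjusted p = 0.167 with the common block and 0.00163 with the block within each time, edgeR). MEP1A, the metalloprotease meprin A, had 14.3 and 10.4 CPM in the OMV libraries, against 26.8 and 14.2 CPM in the PBS libraries (-0.69, adjusted p = 0.3). The replicate 2 libraries held more LCT and MEP1A than the replicate 3 libraries in both groups. VIL1, ANPEP and CDH17, further proteins of the brush border and lateral membrane, had log2 fold changes of -0.09, -0.06 and -0.03, and ENPEP had 0.48, none past the test.

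The chains of fibrinogen also passed only with the block within each time. FGG, its gamma chain, had 446 and 197 CPM in the OMV libraries, against 743 and 309 CPM in the PBS libraries (log2 fold change -0.69, adjusted p = 1 with the common block and 8.83e-05 with the block within each time, edgeR). FGA and FGB, the alpha and beta chains, had log2 fold changes of -0.46 and -0.45. LINC02580, a long non-coding RNA, had no count in OMV replicates 2 and 3 and 18 counts over the PBS libraries, at least 4.38-fold lower against a floor of 3 counts over the group. In the lanes set aside it had the opposite order, with 9 and 7 counts in OMV and 2 and 5 counts in PBS libraries. MS4A10 had 2 and 2 counts in the OMV libraries, against 36 and 6 counts in the PBS libraries, a ratio of 0.13 with a counting interval of 0.034 to 0.359 (95%, exact). In the lanes set aside it had 1 and 5 counts in OMV and 5 and 3 counts in PBS libraries, which overlap. MST1, which encodes a growth factor made by liver (-0.64), GABRE (-0.64), the glutathione transferase GSTA2 (-0.59) and TRIM3 (-0.48) also belonged to this set. Of the 40 genes that passed only with this block, 28 were higher and 12 lower.

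No gene past edgeR's test was found in the lists of cell death (19 tested, 2 at an unadjusted p under 0.05), tight and adherens junction (24 and 2), redox (21 and 2), sterol and fatty acid synthesis (21 and 0), immediate early genes (26 and 1), cell cycle (26 and 0) or reference genes (12 and 1). The sterol list had a median log2 fold change of -0.16, with 3 of 21 genes above 0 and values of -0.27 (FDPS) to 0.03 (SREBF2). The cell cycle list ran from -0.15 (CCNA2) to 0.13 (CDKN1B). TJP1, the tight junction scaffold ZO-1, had 274 and 292 CPM in OMV and 226 and 278 CPM in PBS libraries, and the interval of its log2 fold change was 0.03 to 0.33 (adjusted p = 0.958). ATF3, a stress-induced transcription factor, had 3.52 and 5.20 CPM in OMV and 1.41 and 2.40 CPM in PBS libraries (1.15 ± 0.42, adjusted p = 0.786).

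**Figure D3:**
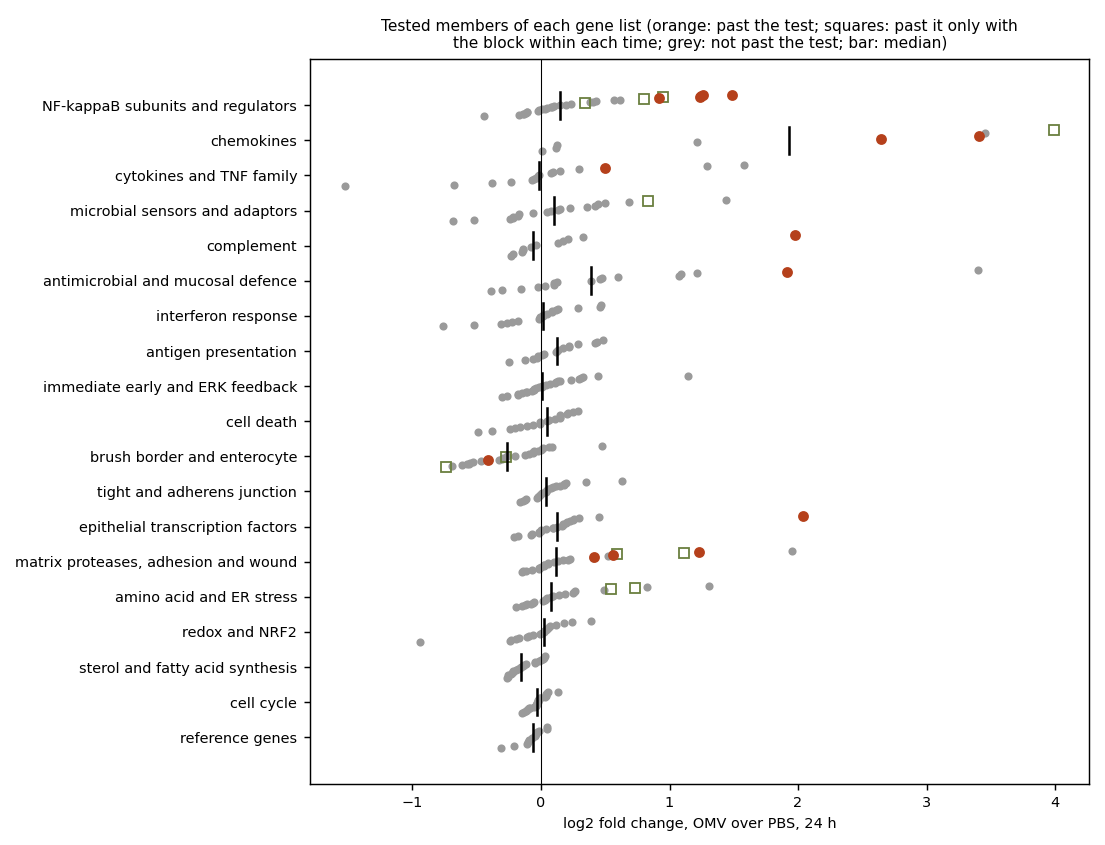
Log2 fold change of OMV over PBS at 24 h (x axis) for the tested members of 19 gene lists (rows), 1 point per gene, with the list median as a bar. The 27 brush border genes have a median of -0.27. Of the 20 chemokines 8 are drawn, and their bar leaves out those with too few counts. The bars of the cytokine and antimicrobial lists leave out such genes as well.

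At 10 h more genes passed the test: 79 were higher (0.421%) and 120 lower (0.639%) in OMV than in PBS cells, 199 in all (1.06%). The numbers of genes are not like for like. The 10 h comparison had 3 OMV libraries of 6444459, 8387329 and 5594770 counts, against 2 of fewer counts at 24 h. Its 2 PBS libraries had 2476570 and 7144185 counts. With replicates 2 and 3 alone, 121 genes passed at 10 h and 19 at 24 h. The balance of directions depended on the fit, with 13 higher (0.0692%) and 5 lower (0.0266%) without the block, 21 higher and 16 lower without PBS replicate 3 of 10 h, and 6 higher and 0 lower with the block over all libraries of the series (edgeR, 898 genes at an unadjusted p under 0.05). Of the 21 genes of 24 h, 11 passed the test with the same direction at 10 h, which is 52.4% of the 24 h genes and 5.53% of the 10 h genes. They were OR2I1P, TNFAIP3, PI3, C3, IKBKE, SDC4, PERP, EHF, IL32 and SVIL, which were higher, and DPP4, which was lower. C3 averaged 240 ± 15.3 CPM in OMV cells (SD, n = 3) and 71.6 ± 12.9 CPM in PBS cells (SD, n = 2) at 10 h, so that its log2 fold change was 1.68 at 10 h and 1.98 at 24 h. PI3 had 1.92 at both times. TNFAIP3 had 0.86 at 10 h and 1.25 at 24 h.

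Of the 24 h genes, 10 did not pass at 10 h: NFKBIA, GARS1, CXCL1, RELB, WNT10B, BIRC3, CCL20, ENSG00000227766, ZBTB26 and TRAF3IP3. NFKBIA averaged 30.8 ± 2.16 CPM in OMV cells (SD, n = 3) and 29.9 ± 1.69 CPM in PBS cells (SD, n = 2) at 10 h, with log2 fold changes of 0.05 at 10 h and 0.92 at 24 h. The difference was 0.87 with an interval of 0.44 to 1.30 before adjustment, and its adjusted p was 0.192. CXCL1 had 0.42 at 10 h and 2.65 at 24 h (adjusted p of the difference 0.6). For 6 of the 10 genes the interval of the difference excluded 0, but none of the 21 passed the test of the difference over all genes. That these genes respond late was therefore not shown.

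The test of the difference between the times (edgeR, the 24 h effect minus the 10 h effect) passed 6 genes (0.032%), 4 higher (0.0213%) and 2 lower (0.0107%), none of them past the test at 24 h. With the block within each time it passed 41 genes (0.218%), 29 higher (0.154%) and 12 lower (0.0639%). SOD2, the mitochondrial superoxide dismutase and a known NF-kappaB target, had log2 fold changes of 0.78 at 10 h and 0.18 at 24 h, a difference of -0.60 (adjusted p = 0.00192). SOD2 had 183 and 146 CPM in OMV and 149.8 and 141 CPM in PBS libraries at 24 h. SDCBP, the scaffold protein syntenin, had 0.87 at 10 h and 0.05 at 24 h (adjusted p = 0.0381). The other 4 genes were lower in OMV than in PBS cells at 10 h and did not pass the test at 24 h. They were the adhesion receptor ADGRG1 (-0.51 at 10 h, 0.12 at 24 h), the amino acid transporter SLC38A3 (-0.92 and 0.25), the epithelial sodium channel subunit SCNN1A (-0.74 and 0.26) and NYNRIN (-1.02 and -0.21), with differences of 0.64, 1.17, 1.00 and 0.81.

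The 79 genes higher at 10 h had a median log2 fold change of 0.68 at 10 h and of 0.18 at 24 h, when 67 of them were above 0. The 120 lower genes had medians of -0.51 at 10 h and -0.08 at 24 h, when 88 of them were below 0. These genes were chosen by their 10 h values, and no test was made of this. CXCL5, a neutrophil chemokine, had 134 counts over the OMV libraries and 0 over the PBS libraries at 10 h, at least 21.0-fold higher against a floor of 3 counts over the group. TNFRSF9, the receptor 4-1BB, had 147 counts over the OMV libraries and 9 over the PBS libraries at 10 h. At 24 h it had 5 counts over the OMV libraries and 7 over the PBS libraries.

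**Figure D4:**
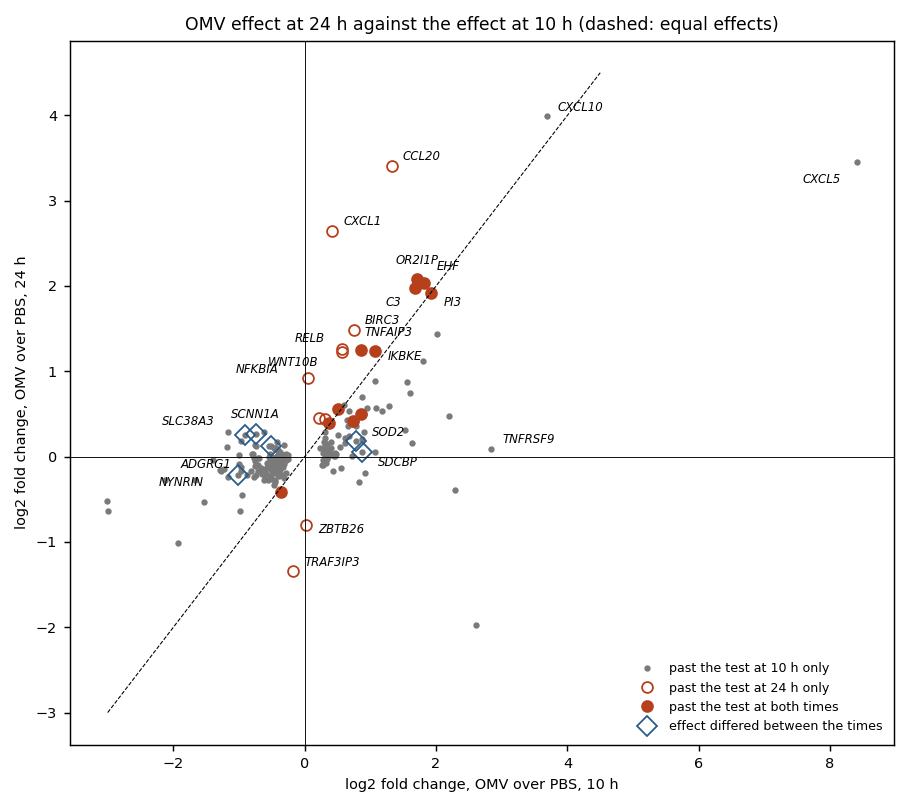
Log2 fold change of OMV over PBS at 24 h (y axis) against that at 10 h (x axis) for the genes past the test at either time or past the test of the difference. The dashed line marks equal effects. C3, PI3, OR2I1P and EHF lie near it, and SOD2 and SDCBP lie below it.

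LPS in the medium gave the nearest comparison for the endotoxin of the vesicles. OMV and LPS cells differed in 29 genes at 24 h (0.154%), of which 28 were higher in OMV cells (0.149%) and 1 was lower (0.00533%). Both this comparison and that with PBS use the same OMV libraries. Of the 18 genes higher than in PBS, 16 were also higher than in LPS cells, and CCL20 (log2 fold change 2.71, adjusted p = 0.05) and SVIL (0.34, adjusted p = 0.161) were not past the test. The 1 lower gene was DPP4 (-0.38 ± 0.07, edgeR, adjusted p = 0.00202). C3 averaged 234 ± 27.5 CPM in OMV cells and 57.4 ± 25.6 CPM in LPS cells (SD, n = 2 each). TNFAIP3 averaged 77.4 ± 11.5 CPM in OMV cells and 32.5 ± 3.37 CPM in LPS cells, and EHF averaged 8.74 ± 0.499 CPM in OMV cells and 1.93 ± 0.0337 CPM in LPS cells. ZC3H12A (1.16), SLC7A11 (0.96), PSAT1 (0.89), MTHFD2 (0.50), SHMT2 (0.45) and the flippase ATP9A (0.39), which passed against PBS only with the block within each time, were higher in OMV than in LPS cells by the log2 fold changes given. ADAM8, a membrane protease (1.08), and TAPBP, the chaperone tapasin of HLA class I loading (0.34), were higher as well. LPS cells against PBS cells gave 0 genes past edgeR's test, with 451 at an unadjusted p under 0.05. In LPS against PBS, which shares the PBS libraries, the 18 genes had log2 fold changes of -0.16 to 0.70 with a median of 0.02.

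MVs of L. casei, a Gram-positive bacterium, were used at a higher number of vesicles. OMV and L. casei MV cells differed in 13 genes at 24 h (0.0692%), 11 higher in OMV (0.0586%) and 2 lower (0.0107%). Of the genes higher than in PBS, 9 were also higher than in L. casei MV cells: OR2I1P, TNFAIP3, PI3, C3, SDC4, PERP, EHF, IL32 and SVIL. DPP4 was lower again (-0.47 ± 0.07, edgeR, adjusted p = 5.02e-05). C3 averaged 234 ± 27.5 CPM in OMV cells and 97.1 ± 27.4 CPM in L. casei MV cells (SD, n = 2 each). Among NF-kappaB regulators, NFKBIA (0.63, adjusted p = 0.108), RELB (0.78, adjusted p = 0.477) and BIRC3 (0.39, adjusted p = 0.969) did not pass the test against L. casei MVs. The 18 genes had log2 fold changes of -0.10 to 1.70 in L. casei MV over PBS cells, with a median of 0.37, and none passed that test. That comparison shares the PBS libraries with OMV over PBS, and the direct contrast shares its OMV libraries. CYP1A1, an enzyme induced through the aryl hydrocarbon receptor, was lower in OMV than in L. casei MV cells (-2.43 ± 0.35, edgeR, adjusted p = 9.29e-05), and OMV over PBS gave -0.27 ± 0.45 for it.

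The 2 OMV libraries were also set against each of the 24 other libraries of 24 h outside the lanes, from the PBS, LPS, transfected LPS, MV, vesicle RNA and control siRNA groups. The same 2 OMV libraries, and the 2 PBS libraries among the 24, had served to choose the genes. The choice therefore partly fixes where the OMV libraries lie, and the shares over all genes are of genes not so chosen. For 15 of the 18 higher genes both OMV libraries lay above every other library (0.399% of all genes did), and for 1 of the 3 lower genes, ZBTB26, both lay below (0.224%). For TNFAIP3 the other 24 libraries ran from 29.2 to 37.8 CPM with a median of 33.5. For C3 they ran from 38.7 to 117 CPM with a median of 68.1, the highest in an L. casei MV library. For CCL20 they ran from 0 to 1.20 CPM, again with the highest in an L. casei MV library. GARS1, BIRC3 and SVIL were the 3 higher genes of which at least 1 OMV library fell within the range of the others.

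**Figure D5:**
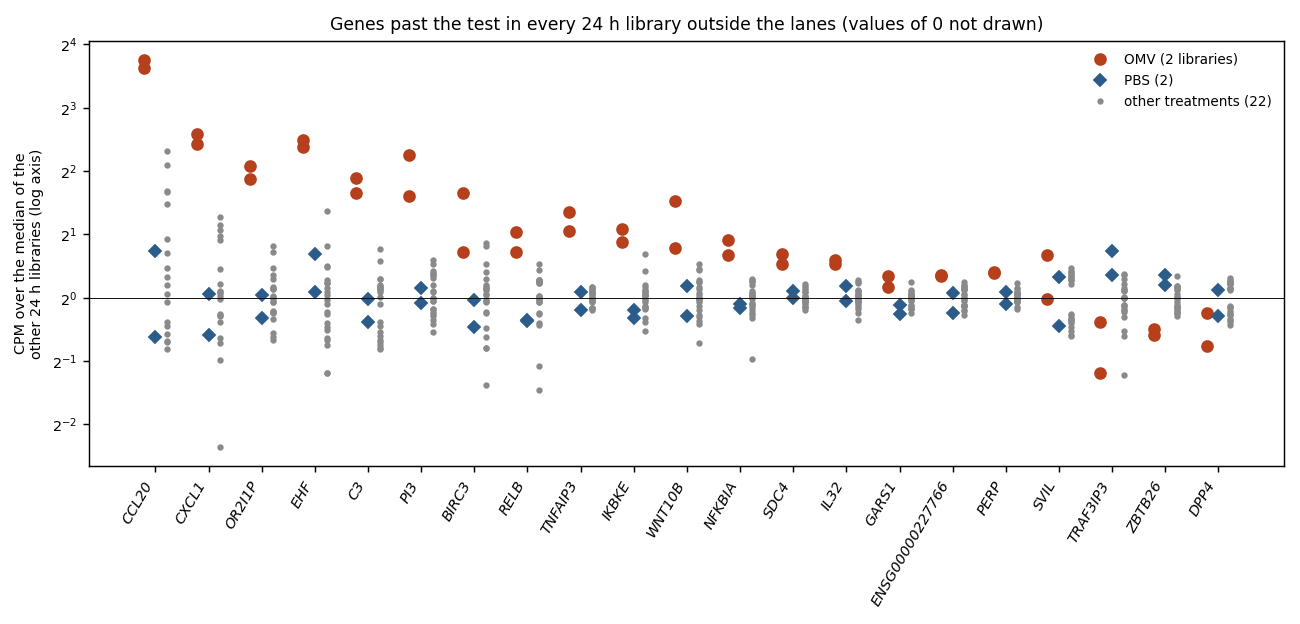
CPM of the 21 genes in each 24 h library outside the lanes, divided by the median over the 24 libraries other than OMV (y axis, log scale), with OMV libraries at the left of each gene, PBS libraries next and the 22 libraries of other treatments at the right. Values of 0 are not drawn. The TNFAIP3 values of OMV, 85.5 and 69.3 CPM, lie above a narrow band of 29.2 to 37.8 CPM.

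How far each gene rested on single libraries was seen by leaving out each of the 4 libraries in turn. EHF and GARS1 did not pass the test without OMV replicate 3 or without PBS replicate 2, with log2 fold changes of 1.80 to 2.27 and of 0.39 to 0.50. BIRC3 and PERP did not pass without OMV replicate 2 or without PBS replicate 2 (1.04 to 1.87 and 0.35 to 0.48). RELB did not pass without OMV replicate 2, OMV replicate 3 or PBS replicate 2 (1.15 to 1.34), WNT10B without OMV replicate 2 or either PBS library (1.0 to 1.4), and ENSG00000227766 without OMV replicate 3 or either PBS library (0.30 to 0.58). The 6 genes that never passed with a library left out kept their direction, at 3.14 to 3.79 (CCL20), 2.24 to 3.21 (CXCL1), 0.44 to 0.55 (IL32), 0.35 to 0.45 (SVIL), -0.85 to -0.77 (ZBTB26) and -1.74 to -0.98 (TRAF3IP3).

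The libraries set aside were compared gene by gene, without a test. Outside the lanes, where the genes were chosen, both OMV libraries lay above both PBS libraries for 17 of the 18 higher genes and below for 2 of the 3 lower genes, which the choice largely fixes (10.3% and 11.7% over all genes). In the lanes set aside this held for 5 of the 18, PI3, C3, SDC4, CXCL1 and SVIL (26.7% of all genes), and for 2 of the 3, DPP4 and ZBTB26 (26.1%). The 5 genes OR2I1P, GARS1, ENSG00000227766, WNT10B and BIRC3 had the opposite order there. OR2I1P had 20.4 and 12.9 CPM in OMV and 20.5 and 27.5 CPM in PBS libraries of those lanes, and TNFAIP3 had 52.7 and 38.6 CPM in OMV and 42 and 65.7 CPM in PBS libraries. All 4 OMV libraries, those of the choice included, lay above all 4 PBS libraries for 4 of the 18 genes, PI3, C3, SDC4 and CXCL1 (0.959% of all genes), and below for 1 of the 3, ZBTB26 (1.18%). In fits of all libraries of the series no gene passed edgeR's test, with 642 genes at an unadjusted p under 0.05 without the block and 1193 with it. Whether the labels or the libraries of those lanes were exchanged was not tested.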

How the data were processed

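Libraries of rRNA-depleted RNA were sequenced with paired ends on a DNBSEQ-G400, and the authors used STAR with GRCh38 for alignment and featureCounts for gene counts. The deposited values are raw counts per gene, not normalised, for 63241 genes in 105 libraries. The members and the gene lists were chosen with earlier results of these data known. Genes were kept by filterByExpr over the 28 groups (18775 genes), libraries were scaled by TMM, and edgeR 4.0.16 (R 4.3.3) fitted group and replicate number to 66 libraries, without lanes 2 to 4 of flow cell 1, with a trended dispersion and the robust quasi-likelihood test. All groups shared 1 estimate of the spread. Adjusted p-values are Benjamini-Hochberg over all genes, two-sided, with a threshold of 0.05. The deviations of same-numbered OMV and PBS libraries from their group means at 24 h correlated at 0.496, with 2 pairs. The labels give each number's libraries, but not what a number shares. Alternatives used DESeq2 1.42.0, limma 3.58.1 voom, other libraries, blocks, scalings and filters. Named genes were those past the test at 24 h, up to 10 in each direction past it only with the block within each time, up to 5 in each direction past the test between times and the largest changes at 10 h, and list members with the smallest p. The fitting script was tested on simulated data. Gene positions come from GENCODE release 44 and promoters from RefSeq. Symbols were found for 62666 gene IDs without the version. The dose of LPS is given in different units by the labels and the methods, and is not printed. Some genes of the lists are not reported here.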

Additional observations from a re-analysis of the deposited data

Results flagged for a closer look

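The effect of OMVs against PBS differed between 24 h and 10 h for 6 genes by the test of the difference (edgeR, Benjamini-Hochberg over all genes). The difference in log2 fold change, 24 h minus 10 h, was -0.60 for SOD2 (adjusted p = 0.00192), -0.82 for SDCBP (adjusted p = 0.0381), 0.64 for ADGRG1 (adjusted p = 0.00276), 1.17 for SLC38A3 (adjusted p = 0.0173), 1.00 for SCNN1A (adjusted p = 0.0252) and 0.81 for NYNRIN (adjusted p = 0.0256).

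The libraries of the lanes set aside were left out of the main fit. In them, both OMV libraries lay above both PBS libraries for 5 of the 18 genes higher at 24 h and below both for 2 of the 3 lower genes. Over all genes 26.7% lay above and 26.1% below. No single library stood apart from the other 3 of its group in any of the 44 groups of 4 values examined by Dixon's test. Each group joined replicates 2 and 3 with replicates 4 and 5 of the lanes set aside. The test looks for a single library, so it cannot flag 2 that stand apart together. C3 in OMV libraries, for example, had 215 and 254 CPM in replicates 2 and 3 and 93.1 and 112 CPM in replicates 4 and 5.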

How the results depend on the processing

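Counts of genes past the test depended on the block and on the libraries. With the replicate block within each time the counts were 61 (OMV against PBS at 24 h), 41 (24 h minus 10 h), 63 (against LPS), 28 (against L. casei MV) and 682 (OMV against PBS at 10 h), and with no replicate block they were 6, 0, 5, 4 and 18, in the same order. Fits of all libraries of the series gave 0 for each 24 h comparison and for the difference between times, with and without the block (unadjusted p under 0.05: 642 and 1193, 850 and 1168, 1421 and 1898, 470 and 525 genes, without the block first), and 3 and 6 genes at 10 h. With the libraries of the contrast alone the counts were 164 against LPS, 71 against L. casei MV and 752 at 10 h. Replicates 2 and 3 alone gave 121 genes at 10 h. The difference between times had 3 genes with limma voom, 14 with no filter on low counts and 3 with the robust option off. Leaving out each library in turn gave 8 to 16 genes at 24 h, 1 to 6 for the difference, 8 to 19 against LPS, 7 to 9 against L. casei MV and 37 to 183 at 10 h. The thresholds of the study, a log2 fold change over 1 and Cohen's d over 0.8 on all libraries of the series, gave 3505 genes of 46395 at 24 h. The log2 fold change of BIRC3 turned to -0.18 and -0.15 in the fits of all libraries of the series without and with the block, and to -0.17 under those thresholds. The cause was not tested.

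DESeq2 called 19 genes at 24 h, of which 18 were among the 21, and limma voom called 14, all among them. Outside the fits of all libraries of the series, C3, IKBKE, OR2I1P, PI3 and TNFAIP3 passed in each of 14 alternatives and none of the 21 genes changed sign. No scaling moved the median of all genes by more than 0.02. Totals of 3763656 to 6232034 counts per library limit genes of few counts, such as CCL20, CXCL10 and CXCL8.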

Other observations

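MVs of E. faecalis and RNA of P. mirabilis OMVs were further treatments at 24 h. E. faecalis MVs against PBS gave 0 genes past edgeR's test, with 631 at an unadjusted p under 0.05, and the 18 genes higher after OMVs had log2 fold changes of -0.53 to 0.99 there, with a median of 0.13. This comparison shares the PBS libraries with OMV against PBS. OMV-RNA, which was transfected into the cells and set against a control siRNA of the same amount (2 ng), gave 0 genes, with 1159 at an unadjusted p under 0.05. The 18 genes had log2 fold changes of -0.60 to 0.26 in that comparison, with a median of -0.01. CYP1A1 was the 1 gene past the test in L. casei MV against PBS cells at 24 h (log2 fold change 2.17), with 741 genes at an unadjusted p under 0.05.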
